A study of Mus musculus with 8 samples.

Results

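The mitotic cell cycle genes are 40 genes, most with transcripts that peak as cells pass from late S phase into division. They were taken by symbol: a gene was included where a probe on the array was annotated with it, and the probes of a gene were averaged. Of the 40, 39 were measured, by 56 probes, among 21794 genes in all. Ccnb1, which encodes cyclin B1, matched no named probe and was not analysed here. The cells came from mammary glands of virgin wild-type mice of the FVB/N-J strain. One fraction was enriched in mammary stem cells (MaSC, of basal type) and the other in luminal progenitors (LP), and both were studied in mammosphere culture, in which cells grow as floating balls. MaSC with interferon-α (IFNα) at 1000 U/ml, MaSC controls, LP with IFNα and LP controls each gave 2 samples, harvested after 8 days, with 1 array per sample. No transgene or deletion is given for any group, and whether animals were pooled is not stated. The comparisons ask whether IFNα went with a different level of these genes in each fraction, and whether the fractions differed.

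Entry into mitosis is driven by active Cdk1 bound to cyclin B. The genes of this programme are held off in resting cells by the DREAM complex and are switched on late in the cycle by B-Myb and Foxm1. Their summed transcript level is widely used as a readout of how many cells in a population are dividing. Type I interferons, which include IFNα, act through a receptor at the cell surface and slow the division of many cell types.

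Genes of this programme are known to share promoter elements: the cell cycle genes homology region (CHR), with the letters TTTGAA or TTCGAA, and CCAAT boxes, which NF-Y binds. RefSeq promoter windows (GRCm38.p6, 250 bases before to 50 after each annotated start) were found for 34 of the 40 genes, with 36 windows between them. TTTGAA or TTCGAA, on either strand, stood in 26 of these 36 windows (72.2%), against 19.2% of all 32851 mouse windows. CCAAT, on either strand, stood in 25 (69.4%), against 37.4% of all windows. Both kinds stood in 23 (63.9%), against 7.52% of all windows. Only in Ube2c did such letters overlap, where 2 CCAAT boxes on opposite strands shared bases. By gene, 21 had both kinds, 3 had CHR letters alone, 2 had CCAAT alone, and 8 had neither: Nuf2, Nusap1, Ncaph, Mybl2, Melk, Mad2l1, Pttg1 and Birc5. A match is a description of letters and not a test of binding. The windows of 5 genes that recur below are shown 5′ to 3′ to let the shared letters be seen, with CHR letters and CCAAT, or their reverse complements, in capitals. They are Cdc20 (chr4:118437294-118437593, minus strand), Ccnb2 (chr9:70421505-70421804, minus strand), Cdk1 (chr10:69352863-69353162, minus strand), Mki67 (chr7:135716330-135716629, minus strand) and Top2a (chr11:99024140-99024439, minus strand).
Cdc20: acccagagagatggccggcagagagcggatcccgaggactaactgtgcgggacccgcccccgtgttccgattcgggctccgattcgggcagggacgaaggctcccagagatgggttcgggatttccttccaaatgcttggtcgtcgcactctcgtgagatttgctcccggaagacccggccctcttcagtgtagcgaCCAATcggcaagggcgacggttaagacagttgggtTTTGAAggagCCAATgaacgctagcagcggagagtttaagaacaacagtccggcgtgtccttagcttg
Ccnb2: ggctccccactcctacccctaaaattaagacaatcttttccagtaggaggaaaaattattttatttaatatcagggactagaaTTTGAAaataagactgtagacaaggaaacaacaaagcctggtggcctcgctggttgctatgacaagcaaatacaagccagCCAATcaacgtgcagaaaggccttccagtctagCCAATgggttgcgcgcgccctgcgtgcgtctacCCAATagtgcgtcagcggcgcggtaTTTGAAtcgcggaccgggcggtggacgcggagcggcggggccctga
Cdk1: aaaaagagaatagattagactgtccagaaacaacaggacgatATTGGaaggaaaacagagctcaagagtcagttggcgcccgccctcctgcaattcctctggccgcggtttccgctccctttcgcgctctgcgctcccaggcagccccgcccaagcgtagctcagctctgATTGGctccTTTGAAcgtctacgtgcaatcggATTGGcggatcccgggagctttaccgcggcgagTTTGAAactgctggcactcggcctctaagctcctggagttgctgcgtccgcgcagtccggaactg
Mki67: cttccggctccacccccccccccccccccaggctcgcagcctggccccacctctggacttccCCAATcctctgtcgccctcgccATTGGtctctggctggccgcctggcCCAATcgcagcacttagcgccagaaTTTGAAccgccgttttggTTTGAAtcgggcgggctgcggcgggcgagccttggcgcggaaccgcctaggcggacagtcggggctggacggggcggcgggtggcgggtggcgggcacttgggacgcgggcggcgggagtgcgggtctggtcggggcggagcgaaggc
Top2a: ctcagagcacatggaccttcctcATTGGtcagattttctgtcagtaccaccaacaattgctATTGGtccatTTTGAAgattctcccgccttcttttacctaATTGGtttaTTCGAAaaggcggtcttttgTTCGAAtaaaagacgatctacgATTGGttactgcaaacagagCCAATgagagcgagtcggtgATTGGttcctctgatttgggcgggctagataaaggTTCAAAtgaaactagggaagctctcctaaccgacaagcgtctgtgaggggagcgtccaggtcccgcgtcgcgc

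In Cdc20 a TTTGAA began 18 bases before the start, between CCAAT boxes whose first bases lay 53 and 8 bases before it. Top2a held 4 CHR letter groups and 6 CCAAT boxes. Ube2c also held 6 CCAAT boxes, and no gene of the set with a window held more.

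Values are log2 ratios of sample RNA (Cy5) over a shared reference RNA made from 11 mouse cell lines (Cy3), so 0 means equal signal in both. LP control replicate 1 stood apart: the standard deviation over its probes was 0.626, and on the other 7 arrays it was 1.19 to 1.26. The results that this array moved most are therefore also given without it, or with all arrays scaled to the same standard deviation or quantile normalized. The 9 measured interferon-stimulated genes averaged 2.88 to 3.56 on the 4 arrays with IFNα, against -3.50 to -3.41 on 3 of the controls and -1.35 on the fourth, LP control replicate 1. Isg15, a ubiquitin-like modifier, was 6.45 ± 0.60 (SE) higher with IFNα averaged over the fractions (limma, adjusted p = 0.0113). Ifit1, which binds foreign RNA, was 7.61 ± 0.80 higher (adjusted p = 0.0185). The 11 basal mammary markers were all higher in MaSC than in LP in controls, with a median difference of 1.95. Of 10 luminal markers 6 were higher in MaSC in controls and 3 were with IFNα, so the luminal markers did not set LP above MaSC in both conditions. The labels name replicates but not separate animals or cultures, so the p-values rest on the spread between these samples alone, and it may be technical. In such bulk samples, fewer dividing cells and less of a transcript in each dividing cell cannot be told apart.

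The mitotic genes were low relative to the reference on every array. Their mean log2 ratio was -1.43 and -1.45 in the MaSC samples with IFNα, and -0.76 and -1.26 in the MaSC controls. In LP it was -1.88 and -2.18 with IFNα, and -0.67 and -1.30 in the controls. The LP samples with IFNα were thus the lowest of the 4 groups, and in each fraction both arrays with IFNα lay below both controls. All 39 genes were below 0 on the 4 arrays with IFNα and on LP control replicate 2, 37 were on each MaSC control, and 36 were on LP control replicate 1. The medians of all genes lay near 0 on each array, as the plot of mitotic gene levels by array shows. LP IFNα replicate 2 gave the lowest value of the 8 arrays for 32 of the 39 genes. LP IFNα replicate 1 gave the second lowest for 29. The highest value was on LP control replicate 1 for 21 genes and on MaSC control replicate 1 for 15. With all arrays scaled to the same standard deviation, the mean of the 39 genes was -1.23 on LP control replicate 1 and -1.24 on replicate 2, against -1.81 and -2.07 in LP with IFNα.

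**Figure D1:**
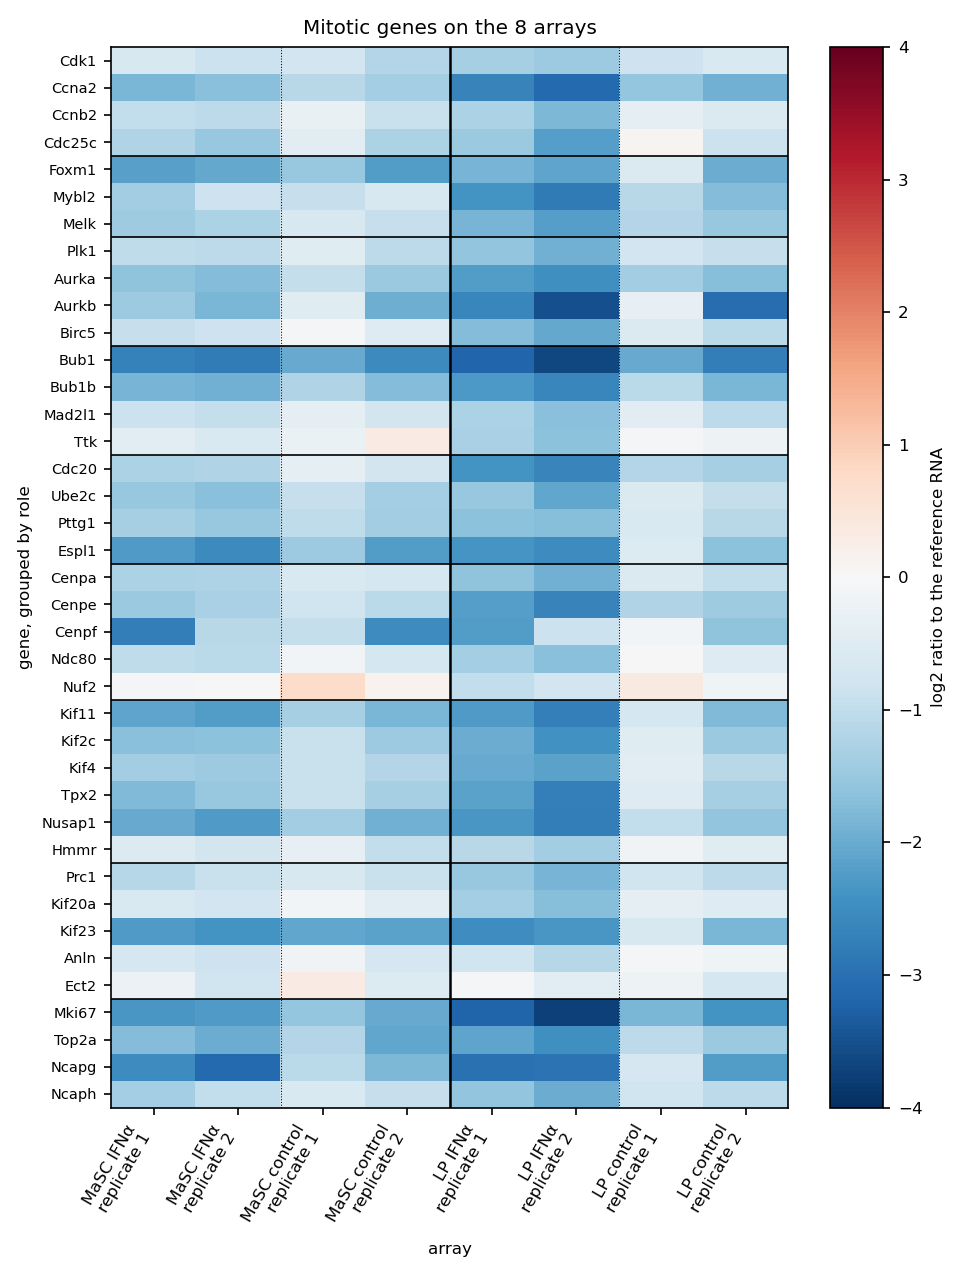
Log2 ratio to the reference RNA (colour, blue below 0 and red above) of the 39 measured mitotic genes (down the page, grouped by role) on each of the 8 arrays (across). The LP columns with IFNα are the deepest blue for most genes, and Mki67 on LP IFNα replicate 2 is the lowest cell at -3.73.

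**Figure D2:**
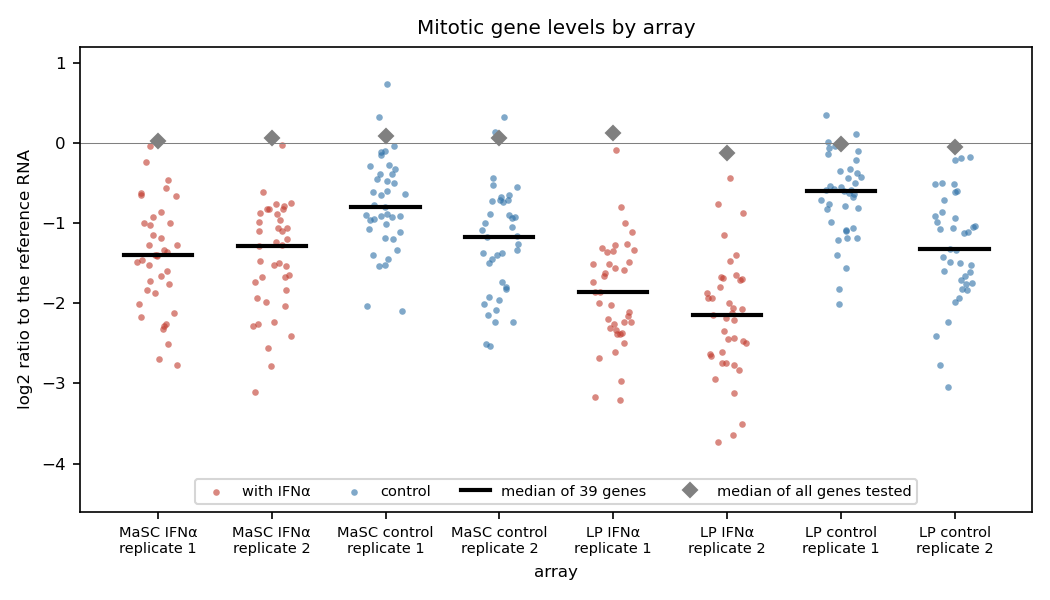
Log2 ratio to the reference RNA (vertical) of each of the 39 genes (1 point each, red with IFNα and blue control) on the 8 arrays (horizontal), with the median of the 39 genes as a bar and the median of all genes tested as a grey diamond. The bars sit at -1.40 and -1.29 in MaSC with IFNα and -0.80 and -1.18 in MaSC controls, and at -1.86 and -2.15 in LP with IFNα and -0.59 and -1.32 in LP controls.

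With IFNα, 37 of the 39 genes were lower in MaSC and 38 were lower in LP, with median changes of -0.44 and -1.05 on the log2 scale (0.737-fold and 0.483-fold). None of the 39 passed the threshold in either fraction (limma, Benjamini-Hochberg adjusted p below 0.05 over all genes), where 0.234% of all genes passed in MaSC and 0.33% in LP. Of the genes that passed, 50 were higher and 1 lower in MaSC, and 72 were higher and 0 lower in LP. The lack of calls among these mostly lower genes therefore does not set them apart from other genes. At an unadjusted p under 0.05, 4 of the 39 were lower in MaSC, against 1.9% of all genes, and 35 were lower in LP, against 3.69% of all genes. With arrays scaled to the same standard deviation these counts were 2 in MaSC and 20 in LP, and with quantile normalization they were 1 and 15. The share of all genes at that level was not computed under such alternatives. Without LP control replicate 1 the LP count was 15. The medians of all genes were -0.05 in MaSC and 0.00 in LP. Both IFNα arrays lay below both controls for 27 of the 39 genes in MaSC, where 20.3% of all genes did, and for 35 in LP, where 18.6% of all genes did. With arrays scaled to the same standard deviation these counts were 28 in MaSC, against 20.6% of all genes, and 28 in LP, against 17.5%. With quantile normalization they were 27, against 18.5% of all genes, and 21, against 15.6%.

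The cyclins, Cdk1 and its activator were read by 4 genes. Ccnb2, cyclin B2, stood at -1.0 and -1.06 in MaSC with IFNα and at -0.29 and -0.90 in MaSC controls. In LP it stood at -1.27 and -1.79 with IFNα and at -0.37 and -0.59 in controls. The groups did not overlap in either fraction, and the changes were -0.44 ± 0.29 in MaSC and -1.05 ± 0.29 in LP (adjusted p = 0.461 in LP). Cdc25c, a phosphatase that activates Cdk1, had the largest change of the 4 in LP. It stood at -1.19 and -1.50 with IFNα and at -0.45 and -1.25 in controls in MaSC, and at -1.49 and -2.21 with IFNα and at 0.12 and -0.86 in controls in LP. Its LP change was -1.48 ± 0.46 (adjusted p = 0.534), and -0.99 against control replicate 2 alone. Cdk1, the kinase that drives entry into mitosis, stood at -0.65 and -0.87 with IFNα and at -0.77 and -1.16 in controls in MaSC, where the groups overlapped. In LP it stood at -1.33 and -1.47 with IFNα and at -0.82 and -0.61 in controls, which did not overlap. Its changes were 0.21 ± 0.22 in MaSC and -0.68 ± 0.22 in LP, and its 3 probes differed, as described below. Ccna2, cyclin A2, differed by -0.51 ± 0.25 in MaSC and -1.15 ± 0.25 in LP, neither past the threshold.

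Of the mitotic transcription factors and a related kinase, Foxm1, which switches on late cycle genes, did not separate the groups. It stood at -2.17 and -2.03 with IFNα and at -1.51 and -2.23 in controls in MaSC, and at -1.85 and -2.12 with IFNα and at -0.58 and -1.98 in controls in LP. Its LP change of -0.71 ± 0.49 was 0.00 against control replicate 2 alone. Mybl2, which encodes B-Myb, had the largest LP change of the 3 genes. Its values in LP were -2.38 and -2.83 with IFNα and -1.10 and -1.75 in controls, without overlap (-1.18 ± 0.33, adjusted p = 0.477). In MaSC they were -1.39 and -0.83 with IFNα and -0.91 and -0.64 in controls, which overlapped. Melk, a kinase found in dividing cells, differed by -0.56 ± 0.23 in MaSC and -0.67 ± 0.23 in LP, the most even pair in this group.

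All 4 genes for mitotic kinases and the chromosomal passenger complex were lower in both fractions, with median changes of -0.44 in MaSC and -1.0 in LP. Aurkb, the passenger kinase that corrects spindle attachments, had the largest LP change, -1.37 ± 0.95, and the widest spread. It stood at -2.61 and -3.50 in LP with IFNα and at -0.32 and -3.05 in LP controls, so the groups overlapped. Against control replicate 2 alone its change was -0.01. In MaSC it stood at -1.46 and -1.83 with IFNα and at -0.48 and -1.96 in controls, which also overlapped. Birc5 (survivin, a passenger subunit), Plk1 and Aurka, kinases that build the spindle poles, differed by -1.06 ± 0.27, -0.93 ± 0.25 and -0.79 ± 0.25 in LP.

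The spindle checkpoint, which delays anaphase until chromosomes are attached, was read by Bub1, Bub1b, Mad2l1 and Ttk. All 4 were lower with IFNα without overlap in both fractions. Ttk, the kinase Mps1 that starts the checkpoint, had the largest LP change of the 4. It stood at -0.46 and -0.61 with IFNα and at -0.27 and 0.33 in controls in MaSC, and at -1.31 and -1.64 with IFNα and at -0.04 and -0.21 in controls in LP. The changes were -0.56 ± 0.26 in MaSC and -1.35 ± 0.26 in LP (adjusted p = 0.232 in LP), and -1.26 in LP against control replicate 2 alone. The other 3 differed by -0.46 to -0.36 in MaSC and by -1.02 to -0.73 in LP, or by -0.64 to -0.42 in LP against control replicate 2 alone.

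Among the genes of anaphase and the anaphase-promoting complex, Cdc20, the activator that starts the destruction of cyclin B and securin, had the lowest p of all members in both fractions. It stood at -1.27 and -1.20 with IFNα and at -0.38 and -0.74 in controls in MaSC. In LP it stood at -2.38 and -2.63 with IFNα and at -1.18 and -1.32 in controls. Its groups did not overlap in either fraction, and LP with IFNα lay more than 1.0 below every other sample. The changes were -0.68 ± 0.21 in MaSC (adjusted p = 0.793) and -1.26 ± 0.21 in LP (adjusted p = 0.143). Espl1, separase, which cuts cohesin, had the largest LP change of this group. It stood at -2.26 and -2.56 with IFNα and at -1.44 and -2.24 in controls in MaSC, and at -2.37 and -2.50 with IFNα and at -0.55 and -1.65 in controls in LP. Its LP change was -1.33 ± 0.43 (adjusted p = 0.552), and -0.78 against control replicate 2 alone. Ube2c, the ubiquitin-conjugating enzyme of the complex, and Pttg1, securin, differed by -1.02 ± 0.28 and -0.81 ± 0.25 in LP.

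Of the centromere and kinetochore genes, Ndc80, which holds microtubule ends, had the largest LP change. It stood at -1.02 and -1.09 with IFNα and at -0.10 and -0.71 in controls in MaSC, and at -1.35 and -1.68 with IFNα and at 0.01 and -0.51 in controls in LP. Its changes were -0.65 ± 0.30 in MaSC and -1.26 ± 0.30 in LP (adjusted p = 0.377 in LP), without overlap in either fraction. Cenpa, the histone H3 variant that marks centromeres, was among the 3 members of lowest p in MaSC. It stood at -1.27 and -1.24 with IFNα and at -0.61 and -0.71 in controls in MaSC, and at -1.62 and -1.93 with IFNα and at -0.58 and -0.98 in controls in LP. The changes were -0.60 ± 0.22 in MaSC (adjusted p = 0.996) and -0.99 ± 0.22 in LP (adjusted p = 0.315). Cenpf, a large kinetochore protein, was the exception. Its replicates differed by more than 1.3 in every group, from -2.77 and -1.10 in MaSC with IFNα to -0.10 and -1.61 in LP controls, so its changes of -0.20 ± 0.90 in MaSC and -0.69 ± 0.90 in LP lay within its spread. Cenpe, a kinetochore motor, and Nuf2, the partner of Ndc80, differed by -1.11 ± 0.24 and -0.96 ± 0.29 in LP.

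The 6 spindle motor and microtubule genes had, with both LP controls, the most negative median LP change of the 9 role groups, -1.27. All 6 were lower without overlap in LP. The rank was not kept against LP control replicate 2 alone. These 6 genes then ran from -1.12 (Tpx2) to -0.72 (Kif2c), and the cyclin and Cdk1 genes from -0.99 (Cdc25c) to -0.79 (Cdk1). With both controls Tpx2, which nucleates spindle microtubules, had the largest LP change of all 39 genes. It stood at -1.76 and -1.53 with IFNα and at -0.88 and -1.34 in controls in MaSC, and at -2.15 and -2.75 with IFNα and at -0.53 and -1.33 in controls in LP. Its changes were -0.53 ± 0.36 in MaSC and -1.52 ± 0.36 in LP (adjusted p = 0.377 in LP), and -1.12 in LP against control replicate 2 alone. In that setting Ttk (-1.26) and Cdc20 (-1.19) had larger decreases. With both controls the Tpx2 probes gave -1.95 and -1.10 in LP, the second near the median of -1.05 over all members. The motors Kif11, Kif4 and Kif2c differed by -1.26 ± 0.40, -1.31 ± 0.27 and -1.22 ± 0.38 in LP, and by -0.60, -0.40 and -0.48 in MaSC. Against LP control replicate 2 alone the LP values were -0.74, -0.96 and -0.72. Nusap1, which bundles microtubules at chromosomes, differed by -0.47 ± 0.32 in MaSC and -1.27 ± 0.32 in LP. Hmmr, a spindle-assembly protein, was the member of this group whose groups overlapped in MaSC. It stood at -0.56 and -0.74 with IFNα and at -0.32 and -0.99 in controls there (0.01 ± 0.29), and its LP change was -0.94 ± 0.29.

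At the midzone, where the dividing cell is cut, Kif20a, a motor needed for cytokinesis, was among the 3 members of lowest p in LP. It stood at -0.62 and -0.76 with IFNα and at -0.11 and -0.44 in controls in MaSC, and at -1.36 and -1.71 with IFNα and at -0.34 and -0.51 in controls in LP. The changes were -0.42 ± 0.22 in MaSC and -1.11 ± 0.22 in LP (adjusted p = 0.240 in LP). Kif23, a subunit of centralspindlin, had the largest LP change of the group. It stood at -2.28 and -2.40 with IFNα and at -2.09 and -2.15 in controls in MaSC, and at -2.49 and -2.34 with IFNα and at -0.63 and -1.83 in controls in LP. Its LP change of -1.19 ± 0.38 was -0.59 against control replicate 2 alone. Ect2, which activates RhoA at the cleavage furrow, was the member that was not lower in LP (0.20 ± 0.38). Prc1, which bundles the midzone, and Anln, anillin, differed by -0.78 ± 0.23 and -0.86 ± 0.25 in LP.

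The last group holds chromosome structure genes and the proliferation antigen. Mki67, which encodes Ki-67, stood at -2.32 and -2.28 with IFNα and at -1.53 and -2.01 in controls in MaSC. In LP it stood at -3.21 and -3.73 with IFNα and at -1.82 and -2.41 in controls. The groups did not overlap in either fraction, and LP with IFNα held the lowest values. The changes were -0.53 ± 0.31 in MaSC and -1.36 ± 0.31 in LP (adjusted p = 0.356 in LP), and -1.07 in LP against control replicate 2 alone. Top2a, topoisomerase IIα, which untangles sister chromatids, stood at -1.72 and -1.98 with IFNα and at -1.18 and -2.08 in controls in MaSC, where the groups overlapped. In LP it stood at -2.10 and -2.46 with IFNα and at -1.06 and -1.48 in controls, without overlap (-1.01 ± 0.35, adjusted p = 0.587). Ncapg, a condensin subunit, had the largest change of all members in MaSC. It stood at -2.51 and -3.10 with IFNα and at -1.07 and -1.80 in controls in MaSC, and at -2.97 and -2.94 with IFNα and at -0.67 and -2.24 in controls in LP. Its changes were -1.38 ± 0.55 in MaSC and -1.50 ± 0.55 in LP. The LP value was -0.72 against control replicate 2 alone and -2.28 against control replicate 1 alone. Ncaph, another condensin subunit, differed by -0.42 ± 0.26 in MaSC and -0.85 ± 0.26 in LP.

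**Figure D3:**
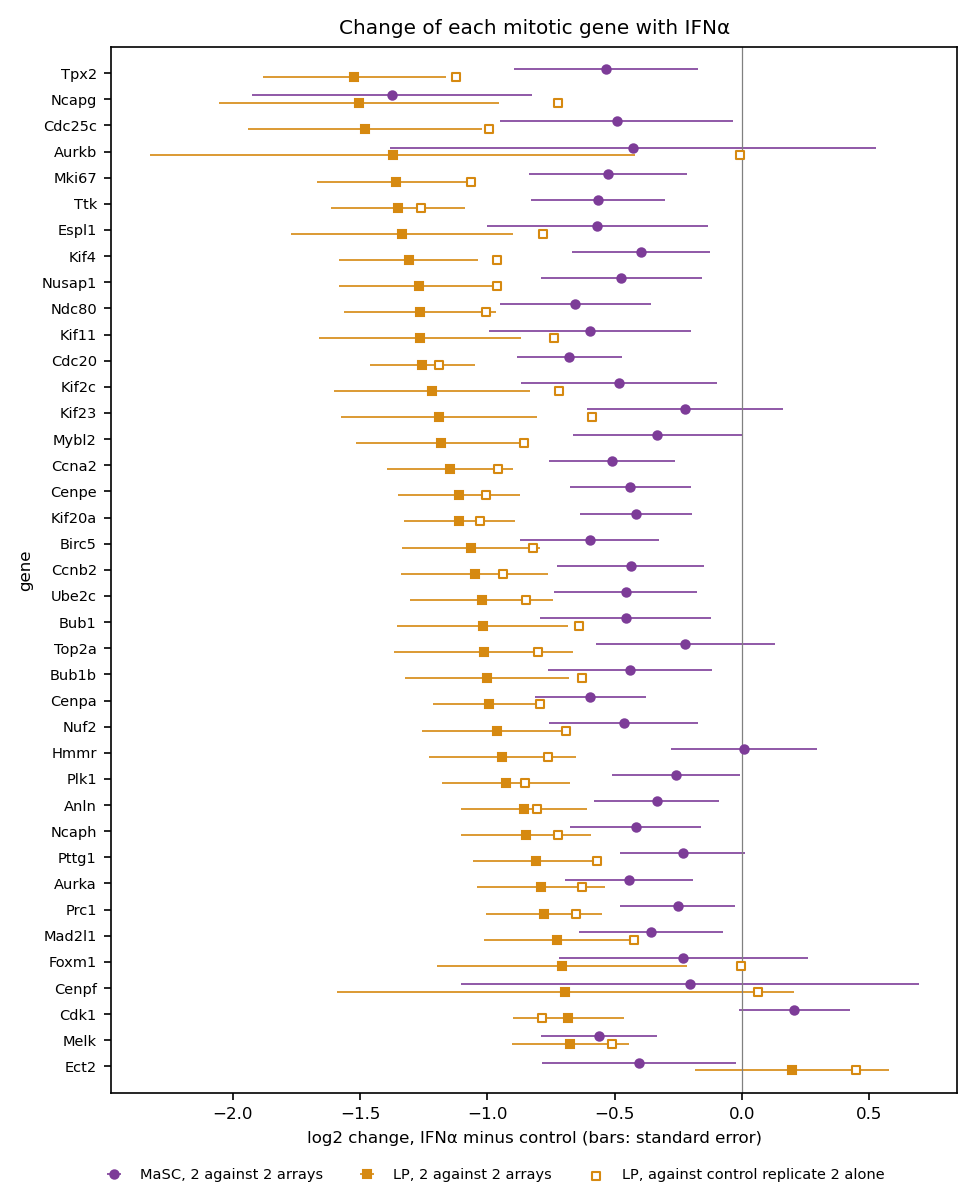
Log2 change with IFNα minus control (horizontal, bars are the standard error from limma) of each of the 39 genes (down the page, ordered by the LP change) in MaSC (purple circles) and LP (orange squares), with the LP change against control replicate 2 alone as open squares. Most LP squares lie left of the MaSC circles, and the open squares lie right of most filled ones, near 0 for Foxm1 and Aurkb.

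Replicates with the same number mostly pointed the same way. In MaSC, 33 of the 39 genes were lower with IFNα in both such differences, 1 was higher in both and 5 were split, and the medians were -0.66 for replicate 1 and -0.24 for replicate 2. The MaSC result leaned on control replicate 1: without it the median was -0.21 and 31 genes were lower. In LP, 37 genes were lower in both differences, 1 was higher in both (Ect2) and 1 was split (Cenpf), with medians of -1.16 and -0.95. Against LP control replicate 2 alone, 35 genes were lower on both IFNα arrays, 1 was higher on both and 3 were split. The median was then -0.79 with 37 genes lower, so the median LP change was smaller without LP control replicate 1. In that setting 38 genes kept their direction and Cenpf turned, to 0.06. The value moved by over 1.5 times for 12 genes: Foxm1, Aurkb, Bub1, Bub1b, Mad2l1, Espl1, Cenpf, Kif11, Kif2c, Kif23 and Ncapg, all toward 0, and Ect2, which was higher at 0.45. Without LP control replicate 2 the median was -1.32, and Kif23 (-1.79, adjusted p = 0.0359) and Kif4 (-1.66, adjusted p = 0.0481) passed the threshold. That setting leaves the array that stood apart as the only LP control, and 1.94% of all genes then passed, 0.954% as lower, against 0.33% with both controls. With arrays scaled to the same standard deviation the LP median was -0.70, and with quantile normalization it was -0.47 with 36 genes lower.

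Of the markers of other cell types, 1 passed with IFNα: Cdh5, an endothelial cadherin, rose in LP (3.59 ± 0.39, adjusted p = 0.0381, or 0.0860 without LP control replicate 1), while 5 of the 8 endothelial and mural markers were lower there. In LP 12 of 14 leukocyte markers were lower, with a median of -0.28, and their mean was -1.86 and -1.89 with IFNα, against -0.79 and -1.91 in controls. Of the LP fibroblast markers 4 of 7 were lower, of the basal markers 9 of 11, and of the luminal markers 6 of 10 were higher (median 0.53). In MaSC 8 of 14 leukocyte, 6 of 7 fibroblast and 2 of 8 endothelial and mural markers were lower, with medians of -0.03, -0.28 and 0.34. Of the 7 adipocyte and red cell markers 6 were lower in MaSC, with a median of -0.37, close in size to that of the mitotic genes, and 4 were lower in LP, with a median of -0.12. The part of such cells in the mitotic gene changes was not tested.

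The difference between the responses, MaSC minus LP, was above 0 for 38 of the 39 genes, with a median of 0.61, which is a larger decrease in LP than in MaSC by these values. No gene passed in this test, in which 0.0% of all genes did, and 1 member had an unadjusted p under 0.05. That member was Cdk1 (0.89 ± 0.31, adjusted p = 1.00), followed by Kif4 (0.91 ± 0.38) and Hmmr (0.95 ± 0.41). The Cdk1 value rested on 1 probe, which gave 2.46, where its other probes gave -0.10 and 0.31. The median was 0.37 without LP control replicate 1, 0.32 with arrays scaled, and 0.09 with quantile normalization, where 26 genes were above 0 and 13 below. A difference in response between the fractions was therefore not established for any single member, and its size depended on how LP control replicate 1 was treated.

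Averaged over both fractions, all 39 genes were lower with IFNα, with a median of -0.74. None passed the threshold, which 0.592% of all genes did, 128 of them higher and 1 lower. At an unadjusted p under 0.05, 33 of the 39 were lower, against 3.37% of all genes. That count was 22 with arrays scaled and 16 with quantile normalization, settings in which the share of all genes was not computed. The medians were -0.59 without LP control replicate 1, -0.53 with arrays scaled and -0.44 with quantile normalization. The lowest adjusted p was that of Cdc20 (-0.97 ± 0.15, adjusted p = 0.0842), followed by Ttk (-0.96 ± 0.19) and Cenpa (-0.79 ± 0.15, adjusted p = 0.201 for each). For 15 genes all 4 arrays with IFNα, from both fractions, lay below all 4 controls, where 1.73% of all genes did. They were Ccnb2, Bub1b, Ttk, Ube2c, Espl1, Cenpa, Ndc80, Kif11, Kif2c, Kif4, Tpx2, Nusap1, Kif20a, Kif23 and Ncapg. These 15 include 5 of the 6 spindle motor and microtubule genes, and none of Foxm1, Mybl2, Plk1, Aurka, Aurkb and Birc5. A gene whose level differs between the fractions can miss this count even when it is lower with IFNα in each. Birc5, Cdc20 and Mki67 were lower without overlap in each fraction and are not among the 15. Birc5 stood at -0.92 and -0.83 in MaSC with IFNα, above LP control replicate 2 at -1.07. The same 15 lay below without LP control replicate 1, where 2.68% of all genes did. With arrays scaled 14 did, 13 of them among the 15, where 1.5% of all genes did. With quantile normalization 9 did, 8 of them among the 15, where 1.23% of all genes did.

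With IFNα, 36 of the 39 genes were higher in MaSC than in LP, with a median difference of 0.60. No gene passed, where 0.505% of all genes did, and 14 had an unadjusted p under 0.05, against 7.72% of all genes higher at that level. Both MaSC arrays lay above both LP arrays for 30 genes, where 21.7% of all genes did. The members of lowest p were Cdc20 (1.27 ± 0.21, adjusted p = 0.0708), Ccna2 (1.15 ± 0.25, adjusted p = 0.117) and Mybl2 (1.50 ± 0.33, adjusted p = 0.124). Ccna2 stood at -1.83 and -1.66 in MaSC with IFNα, against -2.68 and -3.11 in LP with IFNα. Mki67 differed by 1.17 ± 0.31, Cdk1 by 0.64 ± 0.22, Top2a by 0.43 ± 0.35 and Foxm1 by -0.12 ± 0.49. Same-numbered arrays gave 32 genes higher in both differences, 2 lower in both and 5 split. The differences and the overlap counts do not use the LP controls. The standard errors and p-values do, because the fit shares 1 spread per gene over all 8 arrays.

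In controls the result depended on LP control replicate 1. As deposited, 20 genes were higher in MaSC and 19 lower, with a median of 0.02. None passed, where 0.601% of all genes did, and 2 had an unadjusted p under 0.05, against 6.82% of all genes higher at that level. Both MaSC controls lay above both LP controls for 6 genes, Ccna2, Mybl2, Melk, Birc5, Cdc20 and Cenpe, where 23.7% of all genes did, and below them for Kif23, where 22.7% did. With arrays scaled, 28 genes were higher and 11 lower, with a median of 0.18. Both MaSC controls then lay above both LP controls for 15 genes, where 24% of all genes did, and 9 genes were higher at an unadjusted p under 0.05. With quantile normalization 31 were higher and 8 lower, with a median of 0.32. Then 17 genes were without overlap, where 23.6% of all genes were, and 10 had an unadjusted p under 0.05. The shares of all genes at that unadjusted p were not computed with arrays scaled or with quantile normalization. The median was 0.24 without LP control replicate 1, and it turned to -0.27 without LP control replicate 2 and to -0.28 without MaSC control replicate 1. None of the 39 passed the threshold in these settings. The members of lowest p were Cdc20 (0.69 ± 0.21, adjusted p = 0.246), Melk (0.57 ± 0.23, adjusted p = 0.354) and Kif23 (-0.89 ± 0.38, adjusted p = 0.383). Melk stood at -0.63 and -0.93 in MaSC controls, against -1.19 and -1.51 in LP controls. Mki67 differed by 0.34 ± 0.31, Cdk1 by -0.25 ± 0.22, Top2a by -0.36 ± 0.35 and Foxm1 by -0.59 ± 0.49.

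**Figure D4:**
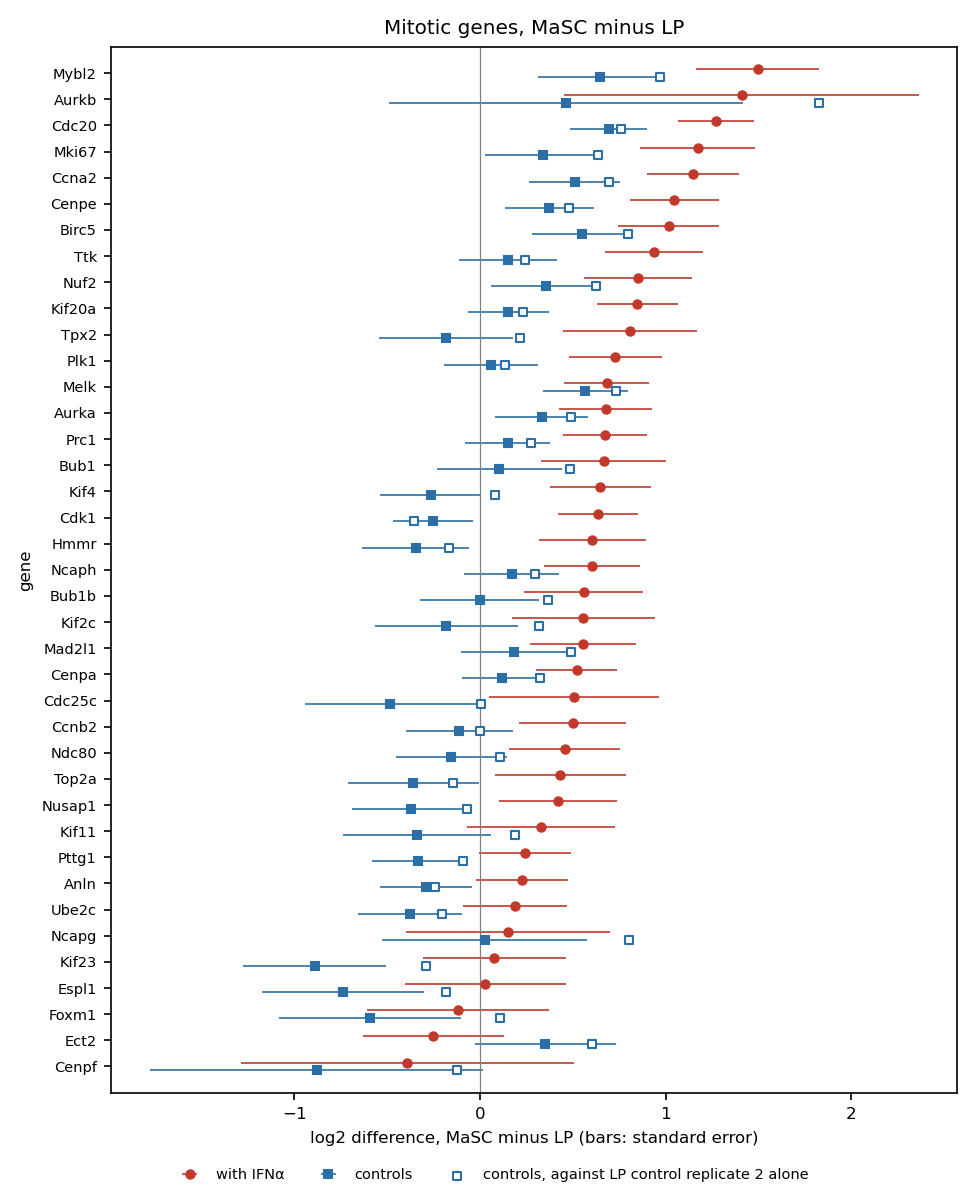
Log2 difference MaSC minus LP (horizontal, bars are the standard error from limma) of each of the 39 genes (down the page, ordered by the difference with IFNα) with IFNα (red circles) and in controls (blue squares), with the control difference against LP control replicate 2 alone as open squares. The red circles lie right of 0 for 36 genes, while the blue squares lie on both sides of 0.

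Averaged over treatments, Cdc20 was the member that passed: it was higher in MaSC by 0.98 ± 0.15 (adjusted p = 0.0287), where 3.69% of all genes passed in this comparison. The 4 MaSC arrays stood at -1.27 to -0.38, against -2.63 to -1.18 on the 4 LP arrays, so MaSC with IFNα overlapped the LP controls. The call ended when any 1 of the 8 arrays was left out (adjusted p = 0.0562 to 0.115) and with quantile normalization (adjusted p = 0.0525). Of the 39 genes 31 were higher in MaSC, with a median of 0.28, and 12 had an unadjusted p under 0.05, against 10.2% of all genes higher at that level. The median was 0.44 without LP control replicate 1, 0.45 with arrays scaled and 0.46 with quantile normalization. At an unadjusted p under 0.05, 17 genes were higher with arrays scaled and 18 with quantile normalization. The share of all genes at that level was not computed in these settings. Ccna2 (0.83 ± 0.17, adjusted p = 0.0642) and Mybl2 (1.07 ± 0.24, adjusted p = 0.0697) came next. With arrays scaled to the same standard deviation Mybl2, Birc5 and Cdc20 passed, where 4.11% of all genes did. With quantile normalization Mybl2 and Birc5 passed, where 4.02% of all genes did.

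Markers of other cell types moved with the fractions. All 7 measured fibroblast markers were higher in MaSC in both conditions. Their mean was -1.18 and 0.08 in MaSC with IFNα, against -2.68 and -2.18 in LP with IFNα, and -0.79 and 0.26 in MaSC controls against -2.82 and -2.20 in LP controls. Of the 8 endothelial and mural markers 8 were higher in MaSC with IFNα and 7 in controls. Their mean was 2.43 and 2.94 in MaSC with IFNα, against 0.29 and 0.43 in LP with IFNα, and 2.21 and 2.37 in MaSC controls, against -0.07 and 0.03 in LP controls. Of the 7 adipocyte and red cell markers 6 were higher in MaSC with IFNα and 5 in controls. Their means ran from 1.05 to 1.89 in MaSC and from -0.11 to 0.01 in LP. The part of these cells in the mitotic gene differences between the fractions was not tested, and log ratios do not show whether a marker is absent.

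Of the 39 genes 26 were read by 1 probe, 9 by 2 and 4 by 3, and some members that departed from the rest did so on a single probe. Of the 3 Cdk1 probes, 1 differed by 1.32 with IFNα in MaSC and the others by -0.36 and -0.34. The same probe gave -1.75 for MaSC minus LP in controls, where the others gave 0.82 and 0.17, so the Cdk1 average joins probes of opposite direction. In LP all 3 were lower with IFNα, at -1.14, -0.25 and -0.66. Of the Ect2 probes, 1 differed by 1.27 with IFNα in LP and the other by -0.88, close to the members' median. Kif23's probes differed by -1.41 and -0.97 with IFNα in LP, but by 0.15 and -0.60 in MaSC. For MaSC minus LP in controls they gave -1.52 and -0.26. Foxm1's differed by -1.02 and -0.39 in LP, and differed by 0.58 and -0.81 between MaSC and LP with IFNα. Mki67's probes were alike, at -1.32 and -1.40 in LP.

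Neighbouring cell cycle lists, set beside the mitotic genes (medians of -0.44 in MaSC and -1.05 in LP), had smaller median changes in both fractions. For the other mitotic genes the gap in MaSC was slight, and no gap between lists was tested. The median level of the mitotic genes had a pooled within-group standard deviation of 0.31. A list of 60 other mitotic genes had medians of -0.42 in MaSC and -0.80 in LP, with 59 lower in each fraction and none past the threshold. Of 38 DNA replication and S phase genes 37 were lower in MaSC and 35 in LP, with medians of -0.32 and -0.52. Pcna, the sliding clamp of the polymerases, differed by -0.24 ± 0.19 in MaSC and -0.16 ± 0.19 in LP. Mcm2, a subunit of the replicative helicase, differed by -0.33 ± 0.25 in MaSC and -0.51 ± 0.25 in LP. The 24 G1 cyclin, E2F and pocket protein genes had medians of -0.19 and -0.18, with 18 lower in MaSC and 15 in LP. The 16 CDK inhibitors and mitotic brakes had medians of -0.12 and -0.46, with 12 lower in each fraction. Cdkn1a (p21), an inhibitor of cyclin-dependent kinases, stood at 0.41 and 0.72 in MaSC with IFNα, against -0.14 and 0.29 in MaSC controls, a change of 0.49 ± 0.26 (adjusted p = 1.00). In LP the Cdkn1a change was 0.26 ± 0.26. Cdkn1b (p27), a related inhibitor, differed by -0.46 ± 0.61 in MaSC and -0.56 ± 0.61 in LP. No gene of these 4 lists passed in an IFNα comparison, and nearly all genes that did pass there were higher with IFNα. The LP medians of the 4 lists, in the order given, were -0.61, -0.31, 0.12 and -0.43 without LP control replicate 1, against -0.79 for the mitotic genes. With quantile normalization they were -0.29, -0.01, -0.07 and -0.17, against -0.47 for the mitotic genes.

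Between the fractions, averaged over treatments, 7 of the 138 genes of these lists passed (5.07%), near the 3.69% of all genes. Of the 7, E2f8 also passed without LP control replicate 1 (adjusted p = 0.0415), and the other 6 did not (adjusted p = 0.0522 to 0.101). Rrm2, a subunit of ribonucleotide reductase, was higher in MaSC by 1.22 ± 0.18 (adjusted p = 0.0295). E2f8, a repressor of the E2F family, was higher by 1.79 ± 0.23 (adjusted p = 0.0190), and E2f5, another repressive E2F, was lower (-0.70 ± 0.13, adjusted p = 0.0477). Shcbp1 (0.94 ± 0.16, adjusted p = 0.0413) and the condensin gene Smc2 (0.77 ± 0.13, adjusted p = 0.0379) were higher. Of the inhibitors, Cdkn2c (p18) was higher by 1.36 ± 0.24 (adjusted p = 0.0430) and Cdkn2a, which encodes p16 and p19Arf, was lower (-1.29 ± 0.24, adjusted p = 0.0497, and -0.47 with arrays scaled).

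**Figure D5:**
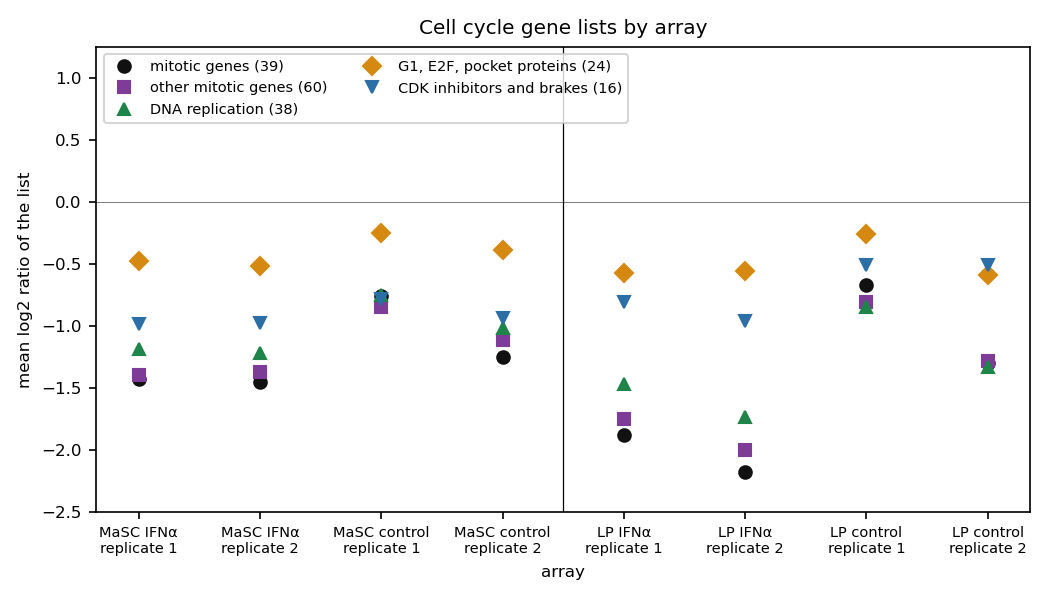
Mean log2 ratio to the reference RNA (vertical) of the mitotic genes and of 4 other cell cycle lists (number of genes in the legend) on each of the 8 arrays (horizontal, MaSC left of the line and LP right). The mitotic genes are the lowest list on both LP arrays with IFNα, at -1.88 and -2.18, and the G1 list varies least, between -0.59 and -0.25.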

How the data were processed

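RNA of 8 mouse mammary samples in 4 groups of 2 was hybridised to two-colour Agilent arrays, per the labels, with sample RNA in Cy5 and the reference in Cy3. Per the submitters' processing notes, images were read with Agilent Feature Extraction 11.0. What the authors deposited are log ratios, taken here as log2 because they reach 8.55, beyond log10 of 16-bit signals. Their normalization and centring are not given in the sources used here, and without intensities signal over background is unknown. Groups followed the titles and characteristics. Both fractions carry an identical surface phenotype in the titles, and the labels do not state whether sorting preceded culture.

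Of 55681 probes 30626 carried 1 symbol and 25055 none. Probes empty on any array (347) were left out, and the 30398 remaining named probes were averaged into 21794 genes. limma 3.58.1 (R 4.3.3) fitted group means over all 8 arrays with empirical Bayes moderation (4 residual and 1.98 prior degrees of freedom) for 7 comparisons. P-values are two-sided with Benjamini-Hochberg adjustment over all genes, ± is limma's standard error, and the threshold was 0.05. The procedure was tested on simulated data. The number of arrays limits the precision.

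The members and lists were chosen with earlier results of these data known. Named genes were Mki67, Top2a, Cdk1 and Foxm1, the 3 members of lowest p in each comparison, the largest LP change in each role group, and passing genes of other lists, with Cdkn1a, Cdkn1b, Pcna and Mcm2. Other members are named by value only, and Cenpf, Hmmr and Ect2 were described after their values were seen. The alternatives were other normalizations, scaling, centring, probe summaries, moderation and array weights, a fit of the compared groups alone, a replicate block, and leaving out each array. Counts of arrays that do not overlap, and of unadjusted p, and the other lists, under these settings were added after seeing the data. Shares of all genes at an unadjusted p were computed only for the values as deposited, with all arrays. Promoter windows are RefSeq's.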

Additional observations from a re-analysis of the deposited data

How the results depend on the processing

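The limits are those of 2 arrays a group and of values with unknown normalization. No mitotic gene passed in the IFNα comparisons with all arrays, and leaving out 1 array gave 0 to 2 in LP. The median LP change moved to -0.47 with quantile normalization and -0.70 with arrays scaled to the same standard deviation, and the median difference between responses moved to 0.085 with quantile normalization. Between the fractions, taking the probe with the highest mean gave 1 call in controls (Cdk1, lower in MaSC), and array weights gave 1 with IFNα (Cdc20). Averaged over treatments, scaling gave 3, where 4.11% of all genes passed, and quantile normalization gave 2, where 4.02% did. With IFNα in MaSC, Cdk1 was -0.041 as the median over its probes, and with 1 array left out Top2a ran from -0.67 to 0.23 and Foxm1 from -0.59 to 0.13. In controls, MaSC minus LP turned to 0.32 for Top2a and 0.26 for Cdk1 with quantile normalization, to 0.16 and 0.14 with scaling, and to 0.17 for Cdk1 as the median over probes. With 1 array left out it ran from -0.81 to 0.091 for Top2a and from -1.30 to 0.11 for Foxm1. With IFNα, Foxm1 was 0.58 for the probe with the highest mean and ran from -0.25 to 0.016 with 1 array left out. The cause was not tested. Of 801 values of named genes under the alternatives 775 kept direction and side of the threshold. Of the 45 results behind them only that of Cdc20 averaged over treatments passed as deposited, so most kept their side by not passing. Leaving out an array outside a comparison also cannot move its change, so this count does not measure how stable the sizes are. Between groups, the deviations of same-numbered samples correlated at -0.02 to 0.31 over all genes and at -0.24 to 0.57 over the 39 members. The labels do not say what a number marks, so the numbers were not taken as pairs. The paired fit with a replicate block left the counts of members at 0 in the IFNα comparisons and at 1 averaged over treatments. Across all genes that replicate block gave 12 calls in MaSC and 27 in LP, against 51 and 72 without it, and 0 calls in each came from a fit of the compared groups alone, run for the 4 comparisons of 2 groups (0 calls in controls and with IFNα too, against 131 and 110).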
